A study of Mus musculus with 17 samples.

Results

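CFs of the transition window, 3 to 5 dpi, were compared with CFs of 6 dpi, the day that follows it, in 11 of the 17 libraries of the series. The window held 8 libraries, 4 at 3 dpi, 3 at 4 dpi and 1 at 5 dpi, and the other 3 libraries were those of 6 dpi. Libraries were assigned by their labelled day, and each window day carried the same weight in the mean, so that the single 5 dpi library counted as much as the 4 of 3 dpi. The study's own bulk profile held 3 samples of 5 dpi, with samples of an earlier data set among those it used for that day. It defined the window by RCF markers and by CTHRC1 staining of heart sections at 3 and 5 dpi. The markers it names are *Cthrc1*, *Ddah1*, *Postn*, *Fn1*, *Lox* and *Ptn*, given as examples. These 6 genes were left aside here, and the question was which other functions of autosomal genes differ between the window and 6 dpi. All libraries came from infarcted hearts of C57BL/6 mice that carried Collagen1a1-GFP, aged 8 to 10 weeks, and no uninfarcted heart was among them. GFP is driven by the *Col1a1* promoter, so the sorted cells (GFP+/CD31-/CD45-) are those in which this collagen promoter is or was active. The study calls its replicates biological, but the labels do not tie a library to a heart. The p-values therefore measure the spread between libraries of the same day, estimated from all 17 libraries of the series. The single 5 dpi library adds nothing to that estimate.

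Total counts ranged from 8336263 to 18716767 in the window and from 12848888 to 16698824 at 6 dpi, so that 3 counts correspond to between 0.16 and 0.36 CPM, the usual scaling of a count to the library total. The sort was visible in the markers it was set on. *Pecam1*, which encodes CD31, had between 8 and 108 counts per library, and *Ptprc*, which encodes CD45, had 0 counts in 7 of the 11 libraries and at most 37. *Col1a1* lay between 12.23 and 14.03 log2 CPM in the window and was 13.38, 13.03 and 13.25 at 6 dpi, with a log2 fold change of -0.32 (standard error, SE, 0.33, edgeR adjusted p = 0.56). Sex-linked genes differed between days. The 4 and 6 dpi libraries carried *Xist* (from 1005 to 3436 counts) with at most 10 counts of 4 Y-linked genes, whereas the 3 and 5 dpi libraries carried at most 2 counts of *Xist* and between 402 and 795 of the Y-linked genes. Only 4 dpi therefore shares the sex-linked pattern of 6 dpi. For 3 and 5 dpi, a difference from 6 dpi by day cannot be told apart from one that goes with this pattern. The same holds for the mean over the window, to which both days contribute. Values of 4 dpi alone against 6 dpi are given for most of the lists and for some of the single genes. The column names of 3 dpi also follow another scheme than those of the other days. What that scheme stands for is not stated, and it cannot be told apart from the day either.

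CFs respond to MI in overlapping phases. They leave their resting state, release chemokines that draw leukocytes, divide, and then make and remodel the matrix that becomes the scar. Dividing cells raise the genes of DNA replication in S phase and those of the spindle and cytokinesis in G2 and M phase, whereas a maturing matrix gains elastic fibres and small leucine-rich proteoglycans that organise collagen.

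Of 13558 autosomal genes tested, 718 were higher in the window than at 6 dpi (5.3%) and 859 were lower (6.34%), at an adjusted p under 0.05 in edgeR's quasi-likelihood test. These shares are the background beside which the counts of each list below are to be read. The median log2 fold change of all autosomal genes, the window minus 6 dpi, was 0.01, and that of the called genes was 1.16 in size. Values given for single genes below are log2 fold changes on this scale unless a level in log2 CPM is named, and negative values are of genes higher at 6 dpi. The fold change had the same sign on each of the 3 window days in 1570 of the 1577 called genes. This is largely built in, since the genes were called on the mean of these days against the same 6 dpi libraries. Every window library lay above every 6 dpi library for 576 genes (4.25%) and below for 637 (4.7%). Without the 3 dpi libraries 295 genes were higher (2.21%) and 470 lower (3.52%), and 650 of the 1577 genes were called in both fits. In 4 dpi alone against 6 dpi, 39 genes were higher (0.288%) and 33 lower (0.243%), of which 71 were among the 1577. Without the 5 dpi library 856 were higher (6.33%) and 1035 lower (7.66%), and without 6 dpi replicate 3 1273 were higher (9.43%) and 1253 lower (9.29%). Single libraries moved the count of called genes by over 1.5 times, namely to 478 without 6 dpi replicate 1, to 294 without 6 dpi replicate 2, to 2526 without 6 dpi replicate 3 and to 2856 without 3 dpi replicate 2.

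Base composition moved with the comparison. In the last 500 bases of their transcripts, which this 3′ protocol reads, genes higher in the window had a median GC content of 40.2%, genes lower in it 52.6% and all tested autosomal genes 44.2%. The mean GC content weighted by counts was between 45.4% and 46.9% in the window libraries and was 47.8%, 48.4% and 46.4% in the 3 libraries of 6 dpi. With a smooth curve on GC content taken out of each library, an alternative chosen after these values were seen, 511 genes were higher (3.77%) and 542 lower (4.0%). Of the 1577 genes, 818 were called in that fit too and 1576 kept their sign. Where the calls of a list moved under this GC offset, its counts are given beside it below. Some genes named below as changed lost their call under the offset. Those not marked there are *H2afz*, *Serp1*, *Asns*, *P4ha2*, *Loxl1*, *Myl6*, *Inhba* and *Ifi27l2a* (adjusted p from 0.052 to 0.25, edgeR).

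**Figure D1:**
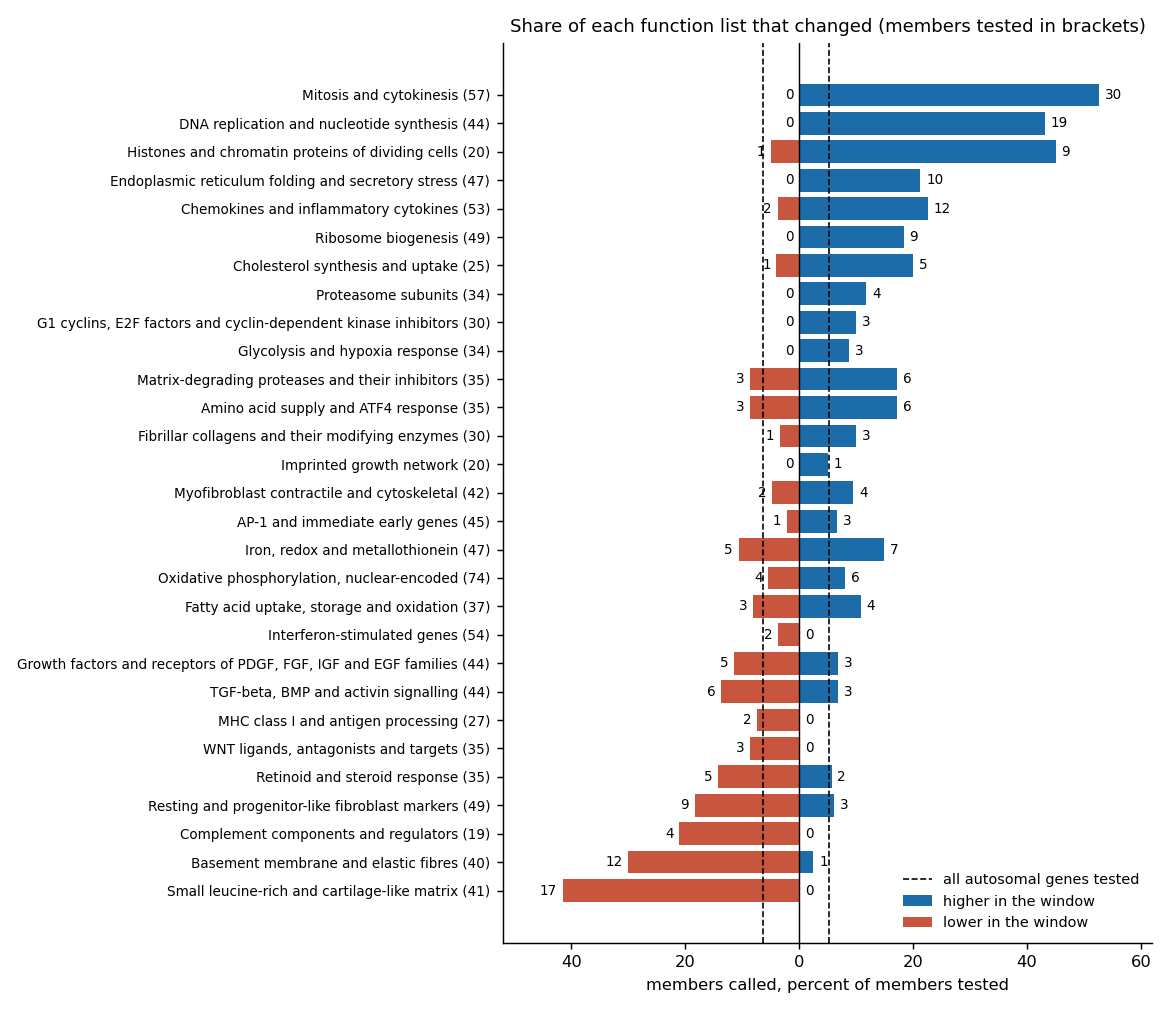
Members of 29 function lists that were higher (blue, to the right) or lower (red, to the left) in the window than at 6 dpi, as a percentage of the members tested, with the number called beside each bar. The dashed lines are the shares of all autosomal genes tested, 5.3% higher and 6.34% lower. Mitosis, DNA replication and chromatin lists reach farthest to the right, and the 2 matrix lists at the bottom reach farthest to the left.

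In the list of DNA replication and nucleotide synthesis 19 of 44 members were higher in the window, 0 were lower and 25 were not called, and the median log2 fold change was 1.09 against 0.01 over all autosomal genes. A positive fold change was found in 44 of the 44, called or not. Under the GC offset 16 were higher, without the 3 dpi libraries 7, and at 4 dpi alone 3. The day medians against 6 dpi were 1.41 at 3 dpi, 0.86 at 4 dpi and 0.91 at 5 dpi.

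*Fen1* (chromosome 19, 10199132 to 10204169 on GRCm38) encodes the nuclease that trims flaps from Okazaki fragments. Its level in the 8 window libraries ran from 3.19 to 4.77 log2 CPM with a median of 3.9, and it was 0.31, 1.43 and 2.15 at 6 dpi. The groups did not overlap, and the log2 fold change was 2.57 (SE 0.40, edgeR adjusted p = 0.0011). *Mcm4* and *Mcm5* encode subunits of the MCM helicase that opens the double strand at origins. *Mcm5* (chromosome 8, 75109569 to 75128439) ran from 4.31 to 6.04 with a median of 5.22 in the window and was 3.38, 3.16 and 3.93 at 6 dpi. *Mcm4* ran from 3.19 to 4.88 with a median of 4.36 and was 2.28, 2.05 and 2.1 at 6 dpi. Neither gene overlapped between the groups, with log2 fold changes of 1.75 for *Mcm5* and 2.12 for *Mcm4*. Both were also called at 4 dpi alone (adjusted p = 0.049 and 0.037, edgeR), as was *Fen1* (adjusted p = 0.042, edgeR). *Cdt1*, which loads the helicase on origins, was higher by 2.41, but its lowest window library (1.99) lay below the highest at 6 dpi (2.25). *Pcna*, the sliding clamp of the polymerases, was higher by 1.54 with no overlap, from 6.19 to 8.57 in the window against 5.87, 4.28 and 6.09. *Rrm2*, a subunit of ribonucleotide reductase, was higher by 1.94 and was not called under the GC offset (adjusted p = 0.054, edgeR).

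The list of mitosis and cytokinesis had the largest share of members called among the 29 lists. Of 57 members, 30 were higher in the window and 0 lower, with a median log2 fold change of 1.41. The day medians were 1.62 at 3 dpi, 1.0 at 4 dpi and 1.44 in the 5 dpi library. Under the GC offset 23 were higher, without the 3 dpi libraries 12, and at 4 dpi alone 3. The mean level of the list was 3.2 log2 CPM in 4 dpi replicate 3, within the range of 6 dpi (2.75 to 3.31), and higher in the other 7 window libraries. The cyclins of G2 and M phase were among them. *Ccnb2* (chromosome 9, 70407692 to 70421547) ran from 5.15 to 6.63 log2 CPM with a median of 6.3 in the window and was 4.76, 4.19 and 4.54 at 6 dpi. The lowest window library, 4 dpi replicate 3, lay above the highest of 6 dpi, and the log2 fold change was 1.56 (SE 0.28, edgeR adjusted p = 0.0026). *Ccnb1* was higher by 2.38 with window levels from 3.38 to 4.2 against 1.41, -0.14 and 2.32. *Ube2c*, which hands ubiquitin to the anaphase-promoting complex, ran from 4.95 to 6.74 and was 4.08, 4.31 and 4.81 at 6 dpi. *Cenpa*, the histone of the centromere, ran from 6.02 to 7.52 and was 5.39, 5.09 and 5.73. None of these 3 genes overlapped between the groups, and the log2 fold changes of *Ube2c* and *Cenpa* were 1.6 and 1.63. *Knstrn* and *Zwilch*, which act at the kinetochore, were higher by 2.14 and 2.58. *Top2a*, which untangles sister chromatids, was higher by 1.68 without overlap, whereas *Mki67* and *Cdk1*, higher by 1.38 and 1.4, overlapped between the groups.

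Promoters of these genes were read as the bases before the RefSeq start on GRCm38.p6, 250 for each gene, and 10326 of the 13558 tested autosomal genes had an entry. They are shown because cell cycle genes are known to carry E2F sites in S phase and NF-Y boxes with a cell cycle homology region in G2 and M phase. The NF-Y letters CCAAT, on either strand, were found in 35 of 47 mitosis promoters (74.5%), in 36.1% of the promoters of tested autosomal genes and in 33.8% of all 32851 promoters of that length. TTTGAA, the letters of the cell cycle homology region, was found in 16 of 47 (34.0%) against 10.5% of tested genes and 16.0% of all promoters. Both sets of letters stood together in 15 of 47 (31.9%) against 4.02% and 5.55%. In the replication list, TTTGGCGC or TTTCCCGC, the letters of E2F, stood in 5 of 36 promoters (13.9%) against 2.51% and 1.3%, and CCAAT stood in 21 (58.3%). CCAAT also stood in 13 of 17 promoters of the cholesterol list (76.5%) and in 13 of 41 of the interferon-stimulated list (31.7%). TTTGAA stood in 1 (5.88%) and 10 (24.4%) of these. These shares are of list members with an entry, called or not. Among called members of the mitosis list CCAAT stood in 17 of 22 (77.3%) and TTTGAA in 7 of 22 (31.8%). Among those of the replication list the E2F letters stood in 2 of 17 (11.8%). The called members thus had shares close to those of their whole lists. All of these are matches of letters and show no binding. Stretches of 4 promoters from this table are printed 5′ to 3′ on the gene's strand, with the matched letters in capitals.
Ccnb2, chr9:70421556-70421736, minus strand: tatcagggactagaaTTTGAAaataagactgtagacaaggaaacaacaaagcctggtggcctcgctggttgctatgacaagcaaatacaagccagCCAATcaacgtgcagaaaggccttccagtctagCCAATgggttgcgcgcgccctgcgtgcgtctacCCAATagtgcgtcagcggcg
Ube2c, chr2:164769686-164769920, plus strand: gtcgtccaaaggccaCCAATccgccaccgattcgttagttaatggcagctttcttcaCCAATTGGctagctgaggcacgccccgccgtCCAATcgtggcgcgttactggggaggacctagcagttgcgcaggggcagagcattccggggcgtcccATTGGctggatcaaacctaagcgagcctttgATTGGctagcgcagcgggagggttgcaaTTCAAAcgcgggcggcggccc
Cenpa, chr5:30666762-30666819, plus strand: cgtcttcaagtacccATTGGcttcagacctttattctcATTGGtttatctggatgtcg
Mcm5, chr8:75109345-75109382, plus strand: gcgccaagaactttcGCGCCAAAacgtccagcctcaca
In Ccnb2 the capitals mark TTTGAA and 3 copies of CCAAT, the nearest starting 21 bases before the start. In Ube2c they mark 6 copies of CCAAT on either strand, of which a pair overlap in CCAATTGG, and TTTGAA on the other strand 29 bases before the start. Those of Cenpa are 2 copies of CCAAT on the other strand, and that of Mcm5 is TTTGGCGC on the other strand. The promoters of *Fen1*, *Cdt1* and *Knstrn* held none of the letters searched for their list in this window.

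Chromatin proteins of dividing cells followed the same direction, with 9 of 20 members higher and 1 lower (median 0.79), and 6 higher under the GC offset. At 4 dpi alone 1 was higher and 0 lower. *Hmgb2*, a DNA-bending protein abundant in cycling cells, ran from 6.15 to 8.02 log2 CPM and was 5.76, 5.68 and 5.4 at 6 dpi, a log2 fold change of 1.54 (SE 0.22, edgeR adjusted p = 7.9e-04). *Hmga1* and the histone variant gene *H2afz* were higher by 1.45 and 0.98. The member that was lower was *H2afv*, another variant of histone H2A, at -0.84, and it too did not overlap. Regulators that act before S phase formed a list of their own. Of 30 G1 cyclins, E2F factors and inhibitors of cyclin-dependent kinases, 3 were higher and 0 lower, with a median of 0.3, and under the GC offset 1 was higher and 2 lower. The higher members were *Ccne1* (1.99), *E2f7* (2.15) and *Myc* (0.89), of which only *Ccne1* stayed higher under the GC offset, and none of the 3 was called without the 3 dpi libraries.

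**Figure D2:**
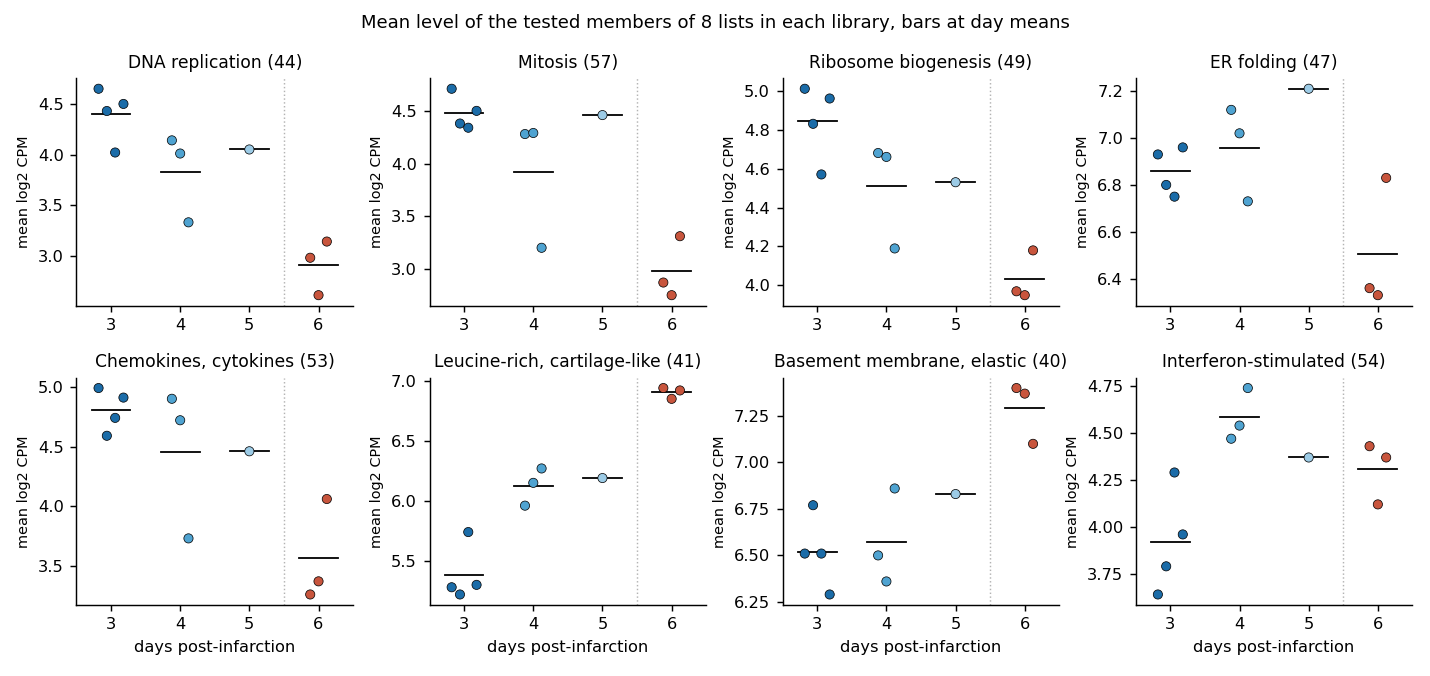
Mean level, in log2 CPM, of the tested members of 8 lists (number in brackets) in each of the 11 libraries against days post-infarction, with bars at the day means and a dotted line between the window and 6 dpi. For DNA replication the window libraries lie between 3.33 and 4.65 and those of 6 dpi between 2.61 and 3.14, and for the leucine-rich and cartilage-like matrix between 5.22 and 6.27 against 6.85 to 6.94. The interferon-stimulated genes overlap between the groups.

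Among chemokines and inflammatory cytokines 12 of 53 members were higher in the window, 2 lower and 39 not called, with a median log2 fold change of 0.86. The day medians were 1.25 at 3 dpi, 0.82 at 4 dpi and 0.58 at 5 dpi. Counts were 11 higher and 2 lower under the GC offset, 6 and 0 without the 3 dpi libraries, and 5 and 0 at 4 dpi alone, where the background is 0.288% and 0.243%. In 4 dpi replicate 3 the mean level of the list, 3.73 log2 CPM, lay within the range of 6 dpi (3.26 to 4.06). Without 6 dpi replicate 3, where 9.43% of all genes were higher, 20 members were higher.

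Among all called genes the highest log2 fold change was 7.63. The ranking by size used here took only genes with a mean of at least 100 counts, no overlap and one sign on all window days. *Cxcl5* (chromosome 5, 90759360 to 90761624), a chemokine that attracts neutrophils, had the largest rise of the genes so ranked. Its levels were 7.92, 8.64, 8.24 and 9.01 log2 CPM at 3 dpi, 6.72, 6.52 and 5.45 at 4 dpi and 6.09 at 5 dpi, and 2.66, 1.79 and 3.95 at 6 dpi. Every window library lay above every 6 dpi library, and the log2 fold change was 3.92 (SE 0.50, edgeR adjusted p = 3.3e-04), or 15.2-fold. *Spp1* (chromosome 5, 104435118 to 104441050) encodes osteopontin, a secreted adhesion protein of inflamed tissue. It was 8.76, 7.71, 8.14 and 7.94 at 3 dpi, 7.05, 7.42 and 5.74 at 4 dpi, 7.37 at 5 dpi and 3.97, 3.39 and 5.08 at 6 dpi. It too did not overlap, with a log2 fold change of 3.18 (SE 0.55, edgeR adjusted p = 0.0021), or 9.03-fold. *Lif*, a cytokine of the interleukin-6 family, ran from 3.62 to 5.3 and was 2.92, 2.02 and 2.18 at 6 dpi. *Ccl9*, which attracts myeloid cells, ran from 4.47 to 5.83 and was 2.65, 3.3 and 3.6. Their log2 fold changes were 1.97 and 1.95, with no overlap for either, and both were called at 4 dpi alone (adjusted p = 0.021 and 0.037, edgeR). The monocyte chemokines *Ccl2* (1.8) and *Ccl7* (1.91) and the prostaglandin synthase *Ptgs2* (1.59) were also higher, but each overlapped between the groups. *Cxcl16*, a membrane-bound chemokine, was lower at -0.8.

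The summed levels of leukocyte markers overlapped between the window and 6 dpi. The summed level of 20 macrophage and monocyte markers ran from 56.8 to 409 CPM in the window and from 82.7 to 102 at 6 dpi, with the 2 highest values, 409 and 353, in 3 dpi replicates 3 and 4. Of 19 markers tested, 1 (*Cd14*, 1.17) was higher, near the background of 5.3%, and the median log2 fold change was 1.37. At 4 dpi, where *Cxcl5*, *Spp1*, *Lif* and *Ccl9* were called, the sums were 106, 125 and 56.8 CPM, the first 2 above and the last below every library of 6 dpi, and the sum was 176 CPM at 5 dpi. *Ptprc* had 0, 0, 37 and 20 counts at 3 dpi, 2, 0 and 0 at 4 dpi, 20 at 5 dpi and 0 in every 6 dpi library. A neutrophil list of 10 genes summed to at most 9.15 CPM in any library. The part of these cells in the chemokine values was not tested. In bulk samples, fewer cells of a type and less RNA per cell cannot be told apart.

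**Figure D3:**
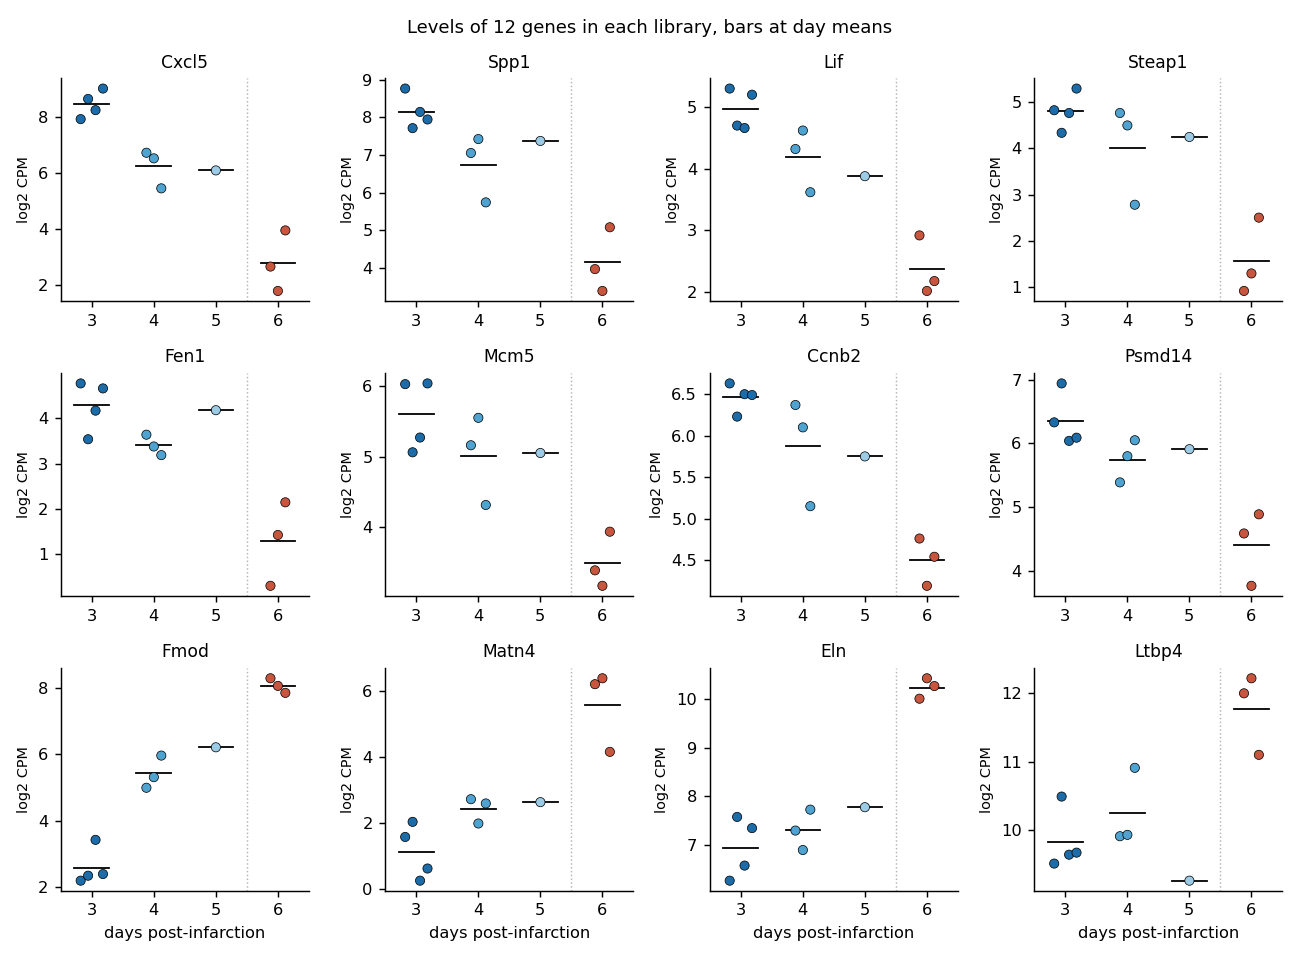
Level of 12 genes, in log2 CPM, in each library against days post-infarction, with bars at the day means and a dotted line between the window and 6 dpi. In the upper 2 rows every window library lies above every 6 dpi library, for *Cxcl5* from 5.45 to 9.01 against 1.79 to 3.95, and in the bottom row below, for *Eln* from 6.27 to 7.78 against 10.01 to 10.43. For genes taken from the largest changes, such as *Cxcl5* and *Eln*, the selection required that the groups do not overlap.

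In ribosome biogenesis 9 of 49 members were higher, 0 lower and 40 not called, with a median log2 fold change of 0.52 and 45 positive values. *Gnl3*, the nucleolar GTPase nucleostemin, was higher by 1.57 (SE 0.31, edgeR adjusted p = 0.0043). Its lowest window library (4.91) lay just under the highest of 6 dpi (4.94). *Nop56* and *Nop58*, core proteins of the particles that methylate ribosomal RNA, were higher by 1.31 and 1.22, and *Npm1*, a nucleolar chaperone, by 1.54. *Rrp1b*, which also acts in ribosomal RNA processing, was higher by 1.37 without overlap. Proteasome subunits had 4 of 34 members higher and 0 lower (median 0.36), and the count was 9 without 6 dpi replicate 3. *Psmd14*, which removes ubiquitin chains at the proteasome lid, ran from 5.39 to 6.94 and was 4.59, 3.77 and 4.89 at 6 dpi, a log2 fold change of 1.55 (SE 0.29, edgeR adjusted p = 0.0032). *Psmd6* and *Psmc6* were higher by 1.29 and 1.01, and *Psma6* by 0.89, and *Psmc6* and *Psma6* were not called under the GC offset.

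In the list of endoplasmic reticulum folding and secretory stress, 10 of 47 members were higher and 0 lower, with a median of 0.47. The day medians were 0.39, 0.43 and 0.59 at 3, 4 and 5 dpi, so that the 5 dpi library was highest, unlike in the lists of cell division and chemokines, which were highest at 3 dpi. Counts were 8 under the GC offset, 8 without the 3 dpi libraries and 18 without 6 dpi replicate 3. *Edem1*, which sends misfolded glycoproteins to degradation, ran from 5.86 to 6.71 and was 5.11, 5.2 and 5.54 at 6 dpi, a log2 fold change of 1.06 (SE 0.20, edgeR adjusted p = 0.0034). At 4 dpi alone 0 members of the ribosome biogenesis, proteasome and endoplasmic reticulum lists were called. The disulfide isomerases *Pdia4* and *Pdia6* were higher by 1.18 and 1.16, and *Serp1*, which guards proteins at the translocon, by 0.98. *Fkbp11*, a prolyl isomerase of secretory cells, was higher by 1.45 without overlap. Amino acid supply and the ATF4 response split, with 6 of 35 members higher and 3 lower, and 7 and 3 under the GC offset. The serine synthesis enzyme *Psat1* (1.58) and the asparagine synthetase *Asns* (1.17) were higher. The members that were lower are stress-response genes, namely *Ddit3*, the transcription factor CHOP, at -1.79 (SE 0.23, edgeR adjusted p = 3.4e-04), *Nupr1* at -1.42 and *Stc2* at -1.23. None of these 3 overlapped between the groups, and *Ddit3* ran from 4.62 to 6.28 in the window against 7.16, 7.41 and 6.34.

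Energy and lipid metabolism showed few calls, beside 5.3% higher and 6.34% lower over all autosomal genes. Glycolysis and hypoxia response had 3 of 34 members higher and 0 lower, and 3 and 1 under the GC offset. The higher members were the glucose transporter *Slc2a1* (1.41), *Pgam1* (1.22) and the collagen prolyl hydroxylase *P4ha2* (0.72), and none was called without the 3 dpi libraries. Nuclear-encoded genes of oxidative phosphorylation had 6 of 74 higher and 4 lower, close to the background shares, with a median of -0.03, and 5 and 3 under the GC offset. *Cyc1* and *Atp5b*, of complex III and of the ATP synthase, were higher by 1.2 and 0.88 without overlap, and *Ndufs7* of complex I was lower at -1.5. Fatty acid uptake, storage and oxidation had 4 of 37 higher and 3 lower, and under the GC offset 1 and 3. *Mgll*, the monoacylglycerol lipase, was lower at -2.0 (SE 0.30, edgeR adjusted p = 9.3e-04) and also at 4 dpi alone (adjusted p = 0.044, edgeR), with levels from 4.3 to 5.75 in the window and of 7.35, 7.64 and 6.35 at 6 dpi. *Etfb* (-1.93) and *Fabp3* (-1.59) were lower, and both are also expressed in cardiomyocytes, whose markers are given below.

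Cholesterol synthesis and uptake had 5 of 25 members higher and 1 lower, and under the GC offset 2 and 1. The synthesis enzymes *Fdps* (1.14), *Fdft1* (0.85) and *Hmgcs1* (0.79) were higher. *Hmgcs1* was not called under the GC offset (0.47, adjusted p = 0.19, edgeR), and at 4 dpi alone 0 members of the list were called. In the *Hmgcs1* promoter the sterol-response letters TCACNCCAC, N being any base, start 137 bases before the RefSeq start, a match that 1.05% of all promoters hold on either strand and 1 of the 17 promoters of the list.
Hmgcs1, chr13:119690199-119690237, plus strand: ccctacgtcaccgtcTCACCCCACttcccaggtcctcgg
The capitals mark the match. *Apoe*, which carries lipids out of cells, was the member that was lower. It ran from 9.37 to 11.2 log2 CPM with a median of 10.08 in the window and was 11.89, 12.77 and 11.24 at 6 dpi. The groups did not overlap but came within 0.1 of each other, and the log2 fold change was -2.04 (SE 0.35, edgeR adjusted p = 0.0019).

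The 2 lists of matrix genes other than the fibrillar collagens had more members lower than higher in the window. Of 41 tested members of the list of small leucine-rich and cartilage-like matrix, 17 were lower and 0 higher, against 6.34% lower over all autosomal genes, and the median log2 fold change was -0.9. The day medians were -1.42 at 3 dpi, -0.5 at 4 dpi and -0.66 at 5 dpi. The count was 17 under the GC offset, 10 without the 3 dpi libraries and 2 at 4 dpi alone, and *Kera*, *Hapln1* and *Mkx* had too few counts to be tested.

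*Fmod* (chromosome 1, 134037254 to 134048277) encodes fibromodulin, a small leucine-rich proteoglycan that binds collagen fibrils. It was 2.19, 2.34, 3.42 and 2.39 log2 CPM at 3 dpi, 4.99, 5.31 and 5.96 at 4 dpi, 6.21 at 5 dpi and 8.29, 8.06 and 7.85 at 6 dpi. Each later day lay above the earlier ones without overlap, and the log2 fold change of the window was -3.3 (SE 0.36, edgeR adjusted p = 8.3e-05), that is 9.84-fold higher at 6 dpi. *Matn4* (chromosome 2, 164389393 to 164405160), a matrilin that links matrix filaments, was 1.57, 2.03, 0.24 and 0.61 at 3 dpi, 2.72, 1.98 and 2.59 at 4 dpi, 2.63 at 5 dpi and 6.22, 6.4 and 4.16 at 6 dpi. All 8 window libraries lay under 2.8, and the log2 fold change was -3.8 (SE 0.44, edgeR adjusted p = 1.4e-04). *Comp*, a thrombospondin of cartilage and tendon that holds collagen fibrils together, ran from 1.56 to 6.25 and was 7.73, 8.18 and 7.92, lower at -2.55. *Mfap4*, a microfibril protein, and *Cpxm2*, a carboxypeptidase-like matrix protein, were lower at -2.11 and -2.62 without overlap. *Acan*, aggrecan, had at most 1.66 log2 CPM in the window and 2.88, 3.13 and 3.76 at 6 dpi. *Ogn* and *Lum*, lower at -1.18 and -1.12, are exceptions in direction, since at 4 dpi alone their log2 fold changes were 0.11 and 0.17.

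Among basement membrane and elastic fibre genes 12 of 40 were lower and 1 higher, with a median of -0.57. Counts were 10 and 0 under the GC offset, 8 and 0 without the 3 dpi libraries and 1 and 0 at 4 dpi alone. The gene lower at 4 dpi alone was *Eln* (chromosome 5, 134702593 to 134747323), which encodes elastin. Its levels were 6.27, 7.58, 6.58 and 7.35 at 3 dpi, 7.3, 6.9 and 7.73 at 4 dpi, 7.78 at 5 dpi and 10.01, 10.43 and 10.27 at 6 dpi. The 8 window libraries spanned 6.27 to 7.78, well below the lowest of 6 dpi, and the log2 fold change was -2.86 (SE 0.29, edgeR adjusted p = 7.4e-05) over the window and -2.9 at 4 dpi (adjusted p = 7.5e-04, edgeR). *Ltbp4*, which elastic fibre assembly needs, was at most 10.91 log2 CPM in the window and at least 11.1 at 6 dpi, lower at -2.02. *Fbln1*, a fibulin of elastic fibres, was lower at -1.78, and *Col8a2*, a short-chain collagen, at -2.86, both without overlap. *Adamtsl2*, a microfibril-binding protein outside the list, was lower at -2.04 and lay between 6.01 and 7.2 against 8.28, 8.82 and 8.14. The member that was higher was *Efemp1* (1.33), which was not called under the GC offset.

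Fibrillar collagens and their modifying enzymes had 3 of 30 members higher and 1 lower, with a median of 0.03, and 2 and 0 under the GC offset. The higher members are enzymes and not collagens. They were the lysyl oxidase relative *Loxl2* (1.32) and the prolyl hydroxylase subunits *P4hb* (0.81) and *P4ha2* (0.72), and *Loxl1* was lower at -0.74. Proteases and their inhibitors split, with 6 of 35 higher and 3 lower, and 4 and 2 under the GC offset. *Plaur*, the urokinase receptor, and the metalloprotease *Mmp19* were higher by 1.25 and 1.07 without overlap. The gelatinase *Mmp2* (-1.08) and the serine protease *Htra3* (-1.47) were lower without overlap. Contractile and cytoskeletal genes had 4 of 42 higher and 2 lower, beside a background of 5.3% and 6.34%, and 6 and 1 under the GC offset. *Acta2*, smooth muscle actin, was higher by 1.2 (SE 0.31, edgeR adjusted p = 0.019), from 9.01 to 10.42 against 8.58, 8.46 and 9.05, and was not called under the GC offset (adjusted p = 0.088, edgeR). *Actg1* and *Tagln2* were higher by 1.14 and 0.92, and the myosin light chain *Myl6* was lower at -0.98. At 4 dpi alone 0 members of the fibrillar collagen, protease and contractile lists were called.

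Signalling lists were mixed, beside 5.3% higher and 6.34% lower over all autosomal genes. Counts of 1 to 3 calls in these lists lie near those shares. In TGF-beta, BMP and activin signalling 3 of 44 members were higher and 6 lower, and under the GC offset 1 and 7. The ligands went both ways. *Inhba*, the activin A subunit, was higher by 1.24 without overlap, whereas *Tgfb1* (-1.48) and *Bmp4* (-1.83) were lower, with overlap. Of the receptors, *Acvrl1* was lower at -1.13. Of the inhibitors of the pathway, *Smad7* was higher by 1.13 and *Ski*, a repressor of SMAD transcription, lower at -1.12 (SE 0.21, edgeR adjusted p = 0.003), with levels from 5.53 to 6.47 against 7.12, 7.46 and 7.04. In the WNT list 0 of 35 were higher and 3 lower, and 4 were lower under the GC offset. The 3 were the co-receptor *Lrp5* (-1.42), *Dkk3* (-1.07) and *Nkd2* (-0.95). The secreted WNT antagonist *Dkk2* had a log2 fold change of 2.38 that did not pass the adjustment (adjusted p = 0.059, edgeR). Among growth factors and receptors 3 of 44 were higher and 5 lower, and 3 and 6 under the GC offset. The IGF-binding proteins *Igfbp6* (-1.89), *Igfbp5* (-1.43), *Igfbp3* (-1.3) and *Igfbp4* (-1.13) were lower, all with overlap, and *Hbegf* (1.19) and the chemokine *Cxcl12* (1.37) were higher. In the TGF-beta, WNT and growth factor lists 0 members were called at 4 dpi alone. In the imprinted network, 1 of 20 was higher and 0 lower, and 1 and 1 under the GC offset. The higher member was the amino acid transporter *Slc38a4* (1.9), which was also called at 4 dpi alone (adjusted p = 0.0093, edgeR). It ran from 3.5 to 4.36 and was 2.3, 1.89 and 1.68 at 6 dpi.

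Interferon-stimulated genes showed no share above the background of 5.3% higher and 6.34% lower, with 0 of 54 higher, 2 lower and a median of -0.06. Their day medians went from -0.37 at 3 dpi to 0.22 at 4 dpi and -0.04 at 5 dpi. The 2 were *Ifi27l2a* (-1.33) and the transcription factor *Irf8* (-1.05), and *Stat2*, which transmits the interferon signal, had -0.63 (adjusted p = 0.078, edgeR). Antigen processing had 0 of 27 higher and 2 lower, which is near the background. The 2 were the immunoproteasome subunit *Psmb10* (-1.1) and the class II gene *H2-Eb1* (-1.38), of which *Psmb10* was not called under the GC offset. Complement had 0 of 19 higher and 4 lower, 4 lower under the GC offset and 1 lower at 4 dpi alone. *C3*, the central component, was lower at -1.44, the complement regulator *Clu* at -1.8 and *C2* at -1.64. *C3* ran from 8.38 to 9.93 and was 9.76, 11.58 and 10.18, so that it overlapped. AP-1 and immediate early genes had 3 of 45 higher, near the background, and 1 lower, but 1 and 2 under the GC offset and 1 and 3 without the 3 dpi libraries. *Fosl1* was higher by 2.59 and *Fosb* lower at -1.02, and the median of the list was 0.36.

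Markers of resting and progenitor-like fibroblasts had 9 of 49 members lower and 3 higher, with a median of -0.45, and 10 and 3 under the GC offset. The background was 6.34% lower and 5.3% higher, near which the 3 lie. *Ly6a*, the surface protein Sca-1, ran from 8.22 to 10.42 and was 10.88, 11.03 and 10.67 at 6 dpi, lower at -1.43 (SE 0.28, edgeR adjusted p = 0.0045). *Pi16*, a marker of adventitial fibroblasts, ran from 8.03 to 9.96 against 10.57, 11.08 and 10.35, lower at -1.42. Both were apart from 6 dpi in every library. Neither was called at 4 dpi alone (adjusted p = 0.33 and 0.16, edgeR), where 0 members of the list were called. The members that were higher were *Hsd11b1* (2.05), which activates glucocorticoids, *Ifi205* (1.52) and *Cxcl12*. In the iron, redox and metallothionein list 7 of 47 were higher and 5 lower, and under the GC offset 7 and 1. The metalloreductase *Steap1* ran from 2.78 to 5.3 and was 0.91, 1.29 and 2.5, higher by 2.77, and it was called at 4 dpi alone (adjusted p = 0.042, edgeR). *Nfe2l2*, the transcription factor NRF2, and its target *Gclm*, of glutathione synthesis, were higher by 1.34 and 1.33, the first without overlap. Retinoid and steroid response had 2 of 35 higher, near the background, and 5 lower, and under the GC offset 1 and 2. *Aldh1a3*, which makes retinoic acid, ran from 4.58 to 5.75 and was 2.46, 1.99 and 4.04, higher by 2.22 (SE 0.40, edgeR adjusted p = 0.0025). The retinoic acid receptors *Rara* (-1.16) and *Rarg* (-1.41) were lower, and *Rara* was not called under the GC offset.

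The 12 largest rises and the 12 largest falls among genes with no overlap, a mean of at least 100 counts and one sign on all window days were also taken without regard to lists. Those of the rises reported here were *Cxcl5*, *Spp1*, *Steap1*, *Zwilch*, *Fen1*, *Ccnb1*, *Asb5*, *Smim3*, *Aldh1a3*, *Slc41a2* and *Bcat1*, from 3.92 down to 2.19. *Bcat1*, which starts the breakdown of branched-chain amino acids in the cytosol, ran from 4.04 to 5.32 and was 3.41, 2.63 and 1.46 at 6 dpi. The falls were *Nppa*, *Matn4*, *C1qtnf3*, *Fmod*, *Myl2*, *Cox6a2*, *Myl3*, *Col8a2*, *Eln*, *Mb*, *Tnnc1* and *Cpxm2*, from -5.04 to -2.62. *C1qtnf3*, a secreted protein with a C1q domain, differed most between the window days, with log2 fold changes of -6.23 at 3 dpi, -2.92 at 4 dpi and -0.81 at 5 dpi, and its 5 dpi level (4.9) lay just under the lowest of 6 dpi (5.07). Of the genes that pass the same rule, the largest that were also called both without the 3 dpi libraries and at 4 dpi alone were *Cxcl5*, *Spp1*, *Steap1*, *Fen1*, *Aldh1a3* and *Bcat1* among the rises and *Nppa*, *Matn4*, *C1qtnf3*, *Fmod*, *Eln* and *Adamtsl2* among the falls. These 12 genes were called under the GC offset as well, with adjusted p from 3e-05 to 0.0039 (edgeR).

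**Figure D4:**
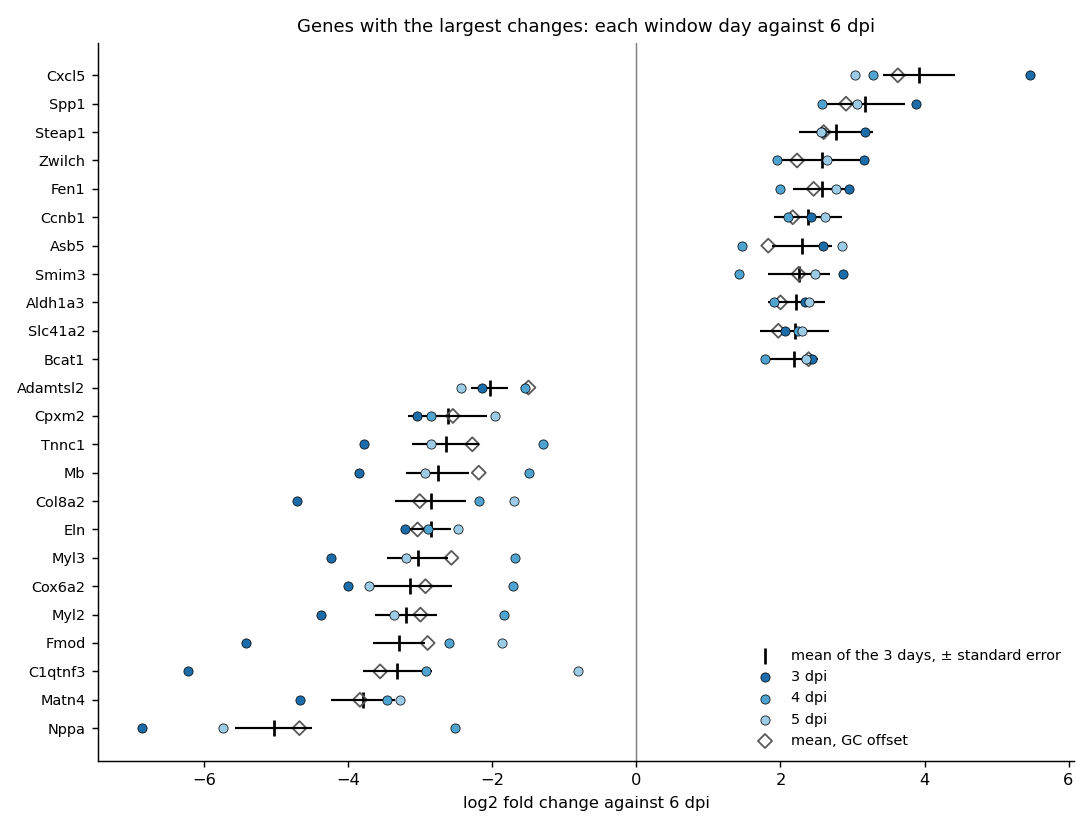
Log2 fold change against 6 dpi of 24 genes with the largest changes, as the mean of the 3 window days with its standard error (black), for each window day (blue points) and as the mean under the GC offset (open diamonds). The genes run from *Cxcl5* at 3.92 to *Nppa* at -5.04. The points of all 3 days lie on one side of 0 for every gene shown, which the selection required.

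Of these falls 6 belong to cardiomyocytes, the muscle cells of the heart, namely *Nppa*, *Myl2*, *Myl3*, *Cox6a2*, *Mb* and *Tnnc1*. In a list of 12 cardiomyocyte markers, 10 of 11 tested were lower in the window and 0 higher, with a median log2 fold change of -2.65, and 9 were lower under the GC offset, 8 without the 3 dpi libraries and 1 at 4 dpi alone. The list summed to between 12.5 and 19.5 CPM at 3 dpi, 72.8, 119 and 91.7 at 4 dpi, 28.9 at 5 dpi and 149, 366 and 233 at 6 dpi. *Nppa*, the natriuretic peptide of atrial and stressed muscle, was at most 2.69 log2 CPM in the window and 3.76, 5.23 and 5.09 at 6 dpi. *Myl2*, the most abundant member, ran from 0.33 to 4.38 and was 4.5, 6.31 and 5.46. The 4 and 6 dpi libraries thus held more of these transcripts than those of 3 and 5 dpi, and the part of cardiomyocyte RNA in the other genes higher at 6 dpi was not tested.

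Lists of other cells were less uniform. Erythroid genes summed to between 1.81 and 26.7 CPM at 3 and 5 dpi, to 308, 786 and 2390 at 4 dpi and to 60.2, 222 and 497 at 6 dpi, with *Hbb-bs*, a haemoglobin gene, at log2 fold changes of -3.81, 2.5 and -3.2 for 3, 4 and 5 dpi. None of 11 endothelial, 10 pericyte and smooth muscle, 4 Schwann cell, 4 neutrophil and 2 lymphocyte markers tested was called, and *Cd3e* and *Cd3d* had 0 counts in all 11 libraries. Of 9 epicardial and mesothelial markers *Msln* was lower, at -2.26, with the highest level, 8.25 log2 CPM, in 6 dpi replicate 2, and it was not called under the GC offset (edgeR adjusted p = 0.14). That library had 700 CPM of the epicardial list, against at most 269 in the other libraries. Its removal left 294 genes called. Removal of 6 dpi replicate 1, with 112 CPM of the list, left 478, and that of replicate 3, with 97.2 CPM, left 2526. Whether this list bears on the number of calls was not tested. The 10 fibroblast-defining genes summed to between 25300 and 38900 CPM in the window and were 30000, 22400 and 32500 at 6 dpi, and 1 of them, *Lum*, was called, and 2 under the GC offset.

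**Figure D5:**
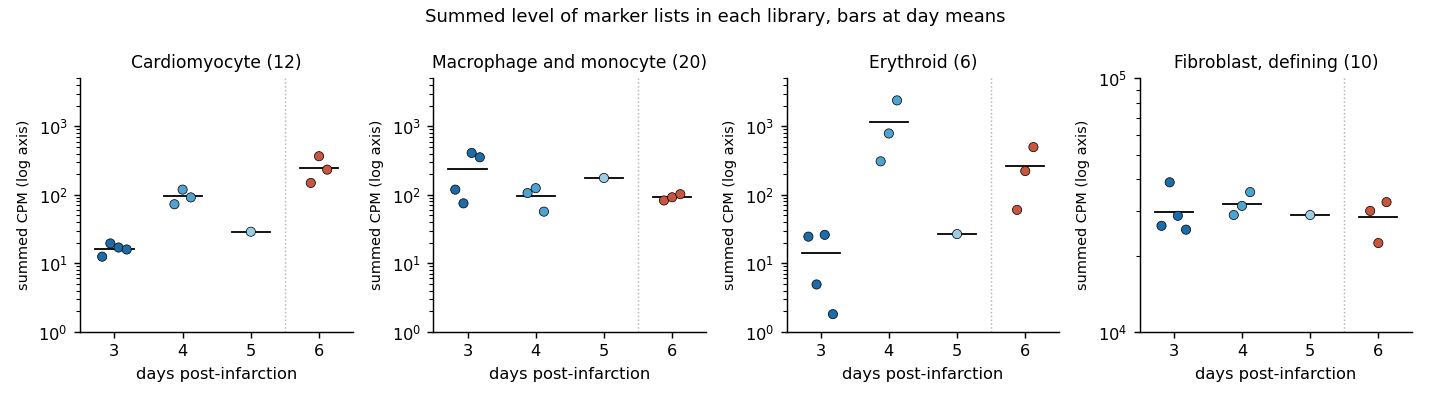
Summed CPM (log axis) of marker lists of cardiomyocytes, macrophages and monocytes, erythroid cells and fibroblasts (number of genes in brackets) in each library against days post-infarction, with bars at the day means. The cardiomyocyte sums run from 12.5 to 119 CPM in the window and from 149 to 366 at 6 dpi, while the other lists overlap between the groups.

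Exon bases shared with another listed gene make the counts of some named genes uncertain, since the sources used here do not state whether reads were counted by strand. These are *Fen1*, *Zwilch*, *Knstrn*, *Ube2c*, *Hmga1*, *E2f7*, *Cxcl16*, *Gnl3*, *Nop56*, *Rrp1b*, *Pdia6*, *Serp1*, *Ddit3*, *Slc2a1*, *Mgll*, *Etfb*, *Fabp3*, *Fdft1*, *Fdps*, *Hmgcs1*, *Matn4*, *Mfap4*, *Cpxm2*, *Eln*, *Loxl2*, *Mmp19*, *Acvrl1*, *Bmp4*, *C2*, *Fosl1*, *Asb5*, *Bcat1*, *Nppa*, *Myl2*, *Myl3*, *Cox6a2*, *Mb* and *Hspd1*.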

How the data were processed

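MARS-seq reads come from the 3′ ends of poly-A transcripts. The authors aligned them to mm10 with STAR and counted them with featureCounts, and the deposited values are raw counts per gene, 1 column per library, without normalization. Duplicate removal and the sex of the mice are not given in the sources used here, and depth intervals cover counting error only. The submitters' processing notes also name bcl2fastq (1.2.4) and DESeq2. The table lists 31053 genes, of which 10484 had 0 counts in all libraries.

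Genes needed 10 counts or more in 3 libraries or more, which left 14030. All 17 libraries entered 1 edgeR fit (4.0.16, R 4.3.3; quasi-likelihood test, TMM scaling, 1 coefficient per day), and Benjamini-Hochberg adjustment covered every gene tested. The contrast was the mean of the 3, 4 and 5 dpi coefficients minus that of 6 dpi. The SE was taken as the size of the log2 fold change over the root of its F statistic. For levels in log2 CPM a prior count of 2 was used. Positions and exon overlaps are from GENCODE vM21 on GRCm38. Tested on simulated data of this comparison with 13659 genes, the fit called 78 of 100 genes changed by 2 on the log2 scale, 15 of 100 changed by 1 and 5 of 13459 unchanged genes.

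The libraries compared and the gene lists were chosen with earlier results of these data known. Genes named are the 12 largest rises and falls as described in the report, up to 4 members with the smallest p in each of 29 lists (mean of at least 50 counts), the most abundant marker of each cell type list with *Pecam1* and *Ptprc*, and the 6 largest rises and falls also called in the fits without 3 dpi and of 4 dpi alone. Other list members named (such as *Pcna*, *Rrm2*, *Top2a*, *Mki67*, *Cdk1*, *Ccl2*, *Ccl7*, *Ptgs2*, *Cxcl16*, *Npm1*, *Fkbp11*, *Asns*, *Comp*, *Acan*, *Ogn*, *Lum*, *Efemp1*, *Plaur*, *Tgfb1*, *Bmp4*, *Igfbp3*, *Igfbp4*, *Pi16* and *Cd14*) were chosen after their values were seen. One gene that met the rule is not reported here. The alternatives were other normalizations (DESeq2's size factors, upper quartile), DESeq2 (1.42.0), other filters, a robust spread, a replicate block, other sets of libraries or weights, a minimum fold change and, added later, a GC offset (lowess, span 0.3). No pair of libraries of a day agreed within sampling noise (chi-square over degrees of freedom of 23.03 or more).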

Additional observations from a re-analysis of the deposited data

Results flagged for a closer look

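Among the 4 libraries of 3 dpi, 3 of 54 measures had a library far from the other 3, its gap to the nearest one being over Dixon's 95% limit as a share of the range. Chance flags about 1 in 20 groups, here 2.7. *Smim3*, which encodes a small membrane protein, was 4.28 log2 CPM in 3 dpi replicate 2 and between 6.11 and 6.22 in the others (ratio 0.945). *Fmod* was 3.42 in 3 dpi replicate 3 and between 2.19 and 2.39 in the others (ratio 0.838), and the mean level of the leucine-rich and cartilage-like matrix list was 5.74 in the same library and between 5.22 and 5.3 in the others (ratio 0.852). *Xist*, outside the autosomal comparison, had 85.7, 71.7 and 255 CPM in the 3 libraries of 6 dpi and at most 0.142 CPM in those of 3 dpi.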

How the results depend on the processing

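The main counts were 1577 genes changed, 718 higher and 859 lower, and the cause of the differences given here was not tested. DESeq2 called 1112 genes higher. With only the libraries of 3 to 6 dpi, 901 changed, 386 higher and 515 lower. Without the 3 dpi libraries the counts were 765, 295 and 470, in 4 dpi alone 72, 39 and 33, and with a minimum log2 fold change of 1 they were 25, 8 and 17. Under the GC offset 542 were lower of 1053. Leaving out one library gave between 294 and 2856 changed genes, 112 to 1314 higher and 182 to 1542 lower. The replicate block gave 1080 genes, 496 higher and 584 lower. The number was not taken to pair libraries, since deviations of same-numbered libraries of different days had a mean correlation of 0.011 over 30 pairs (lowest -0.108) against -0.005 over 72 other pairs. Of the 192 named genes that were called, 27 kept their call at 4 dpi alone, 120 without the 3 dpi libraries, 155 under the GC offset and 69 without 6 dpi replicate 2. Signs turned at 4 dpi alone for *Lum* (0.17), *Ogn* (0.11), *Mirg* (0.07) and *Hbb-bs* (2.5), without the 5 dpi library for *Camp* (-0.17), and for list medians at 4 dpi alone (fibroblast 0.17, Schwann cell -0.1, erythroid 2.18, interferon-stimulated 0.22, WNT -0.09, oxidative phosphorylation 0.04, complement -0.02, fibrillar collagens -0.01) and with at least 10 counts in every library (G1 cyclins -0.11, Schwann cell -0.68). List medians near 0 turned in other fits too. Examples without the 3 dpi libraries are interferon-stimulated genes (0.07), oxidative phosphorylation (0.07), proteases (0.06) and complement (-0.04). Under the GC offset they include WNT (-0.18), oxidative phosphorylation (0.12) and complement (-0.03).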

Other observations

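A further 3 lists were drawn up after the values of single genes had been seen, so their counts are a description. Of 37 genes of the nuclear pore and of nuclear import, 16 were higher in the window and 0 lower, with a median log2 fold change of 0.75, and 9 were higher under the GC offset. At 4 dpi alone 1 was higher and 0 lower. The import receptor *Kpna2* was higher by 1.7, with levels from 4.91 to 6.76 log2 CPM against 3.97, 3.49 and 4.86 at 6 dpi. The GTPase *Ran*, which drives transport through the pore, ran from 8.37 to 9.7 and was 7.68, 7.58 and 8.13. Of 22 chaperonins and related chaperones, 3 were higher (4 under the GC offset) and 0 lower, *Hspd1* (1.19) and *Hspa9* (1.33) of mitochondria and *Cct2* (1.22) of the cytosol.

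Of 50 lysosomal genes, 14 were lower in the window and 1 higher, with a median of -0.4, and under the GC offset 5 were lower and 1 higher. At 4 dpi alone 1 was lower and 0 higher. The cathepsin *Ctsf* ran from 2.84 to 4.21 and was 5.37, 5.74 and 4.98 at 6 dpi, lower at -1.9 (adjusted p = 0.0017, edgeR). *Gm2a*, a lipid-binding cofactor of lysosomal enzymes, and the calcium channel *Mcoln1* were lower by -1.02 and -1.0. The cathepsin *Ctsh* was the one that was higher, by 1.01.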
